A study of Mus musculus with 8 samples.

Results

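Transcripts of 48 genes that keep mitochondria in working order were examined in brown adipose tissue (BAT) of WT and Cd36KO mice. The genes were taken from a fixed list of mitochondrial chaperones, proteases and prohibitins, fusion and fission factors, cristae organisers, outer membrane channels, mitophagy receptors, cargo adaptors and core autophagy factors. All 48 were found among the 31053 gene identifiers of the count table. The bulk RNA-seq libraries were 4 of WT and 4 of Cd36KO tissue, all labelled as C57BL6/J mice of 8 weeks. The comparison asked how loss of the scavenger receptor CD36 changed BAT transcripts. The genotype label is Cd36KO, with no allele named, while the study's text, which also describes germline knockout mice, attributes its BAT transcriptome to mice in which floxed Cd36 was deleted by Csf1r-Cre, a driver active in macrophages and other myeloid cells. In those mice other cells of BAT, adipocytes and endothelial cells included, keep the gene. The methods also give an older age at sacrifice and male mice only, whereas Xist, the transcript of the inactive X chromosome, held 772 to 1588 counts in all 8 libraries and the 4 Y-linked genes examined held 0 to 3.

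Brown adipocytes burn fuel in densely packed mitochondria whose inner membrane carries the uncoupling protein UCP1. Such mitochondria depend on chaperones and proteases that fold and clear proteins inside the organelle, on fusion and fission that mix and divide it, and on mitophagy, the autophagic removal of whole damaged mitochondria. Stressed brown adipocytes can also eject damaged mitochondrial material, which macrophages take up.

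The libraries held 2679785 to 4097953 counts, of which the 48 genes took 0.596% to 0.668%. Cd36 itself remained abundant in Cd36KO, with 1926 to 2384 normalized counts against 2412 to 3505 in WT, and its DESeq2 adjusted p of 0.0602 did not pass. A normalized count is a count divided by the size factor of its library. Replicate numbers are missing from the table for 1 Cd36KO library, which is called unnumbered. The cell type label reads Stromal Vascular Fraction, yet the adipocyte markers were abundant throughout, with a sum over 6 of 6 genes of 9785 to 14153 CPM (counts scaled to an equal library total) in WT and 8531 to 9979 in Cd36KO. Brown and white adipocyte marker sums did not overlap between the genotypes, while the other marker sums computed did. The brown adipocyte markers, 10 of 10 with counts, summed to 4695 to 6150 CPM in WT and 8781 to 10523 in Cd36KO. White adipocyte markers, 6 of 8 with counts and Hoxc10 and Tcf21 at 0 in every library, summed to 198 to 1286 CPM in WT and 123 to 165 in Cd36KO. Skeletal muscle markers, 18 of 18 with counts, summed to 432 to 31950 CPM in WT and 129 to 3220 in Cd36KO. Macrophage markers, 12 of 12 with counts, covered 211 to 320 CPM in WT and 202 to 281 in Cd36KO. In bulk tissue, fewer cells of a type and less RNA per cell cannot be told apart.

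No gene of the 48 passed the DESeq2 threshold, an adjusted p under 0.05 over all genes, against 2.95% of all 9617 genes with an adjusted p (1.42% higher and 1.53% lower in Cd36KO). The edgeR quasi-likelihood test and limma also called 0. Over all genes edgeR called only 0.143% of 9793 and limma 8 of 17367, so their 0 says little about the 48 genes. At an unadjusted p under 0.05, DESeq2 gave 9 of the 48 (18.8%), edgeR 8 and limma 9, beside 15.6% of all genes in DESeq2, 16.1% in edgeR and 16.2% in limma over the 9617 genes with a DESeq2 adjusted p (11.5% over all 17367 genes with counts). The 9 were Trap1, Parl, Phb, Mfn1, Apool, Vdac2 and Vdac3, 7 genes with higher values in Cd36KO where 7.69% of all genes had such a p, and Oma1 and Vdac1, with lower values where 7.88% did. In 5 of the 48 (10.4%) the 4 Cd36KO values did not overlap the 4 WT values, 4 of them higher and 1 lower, beside 8.77% of all genes (4.84% higher and 3.93% lower).

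The differences were small. Log2 fold changes of Cd36KO over WT ran from -0.66 for Oma1 to 0.56 for Phb, with a median of 0.11 beside -0.0087 over all genes tested. They were above 0 for 33 of the 48 (68.8%), beside 49.2% of all genes and 53.1% of genes with a mean of at least 50 normalized counts. For 44 of the 48 the 95% interval lay within -1 to 1 on the log2 scale, so that a change of more than 2-fold was outside the interval, as it was for 63.3% of all genes. The exceptions were Oma1, Htra2, Phb and Fundc1.

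**Figure D1:**
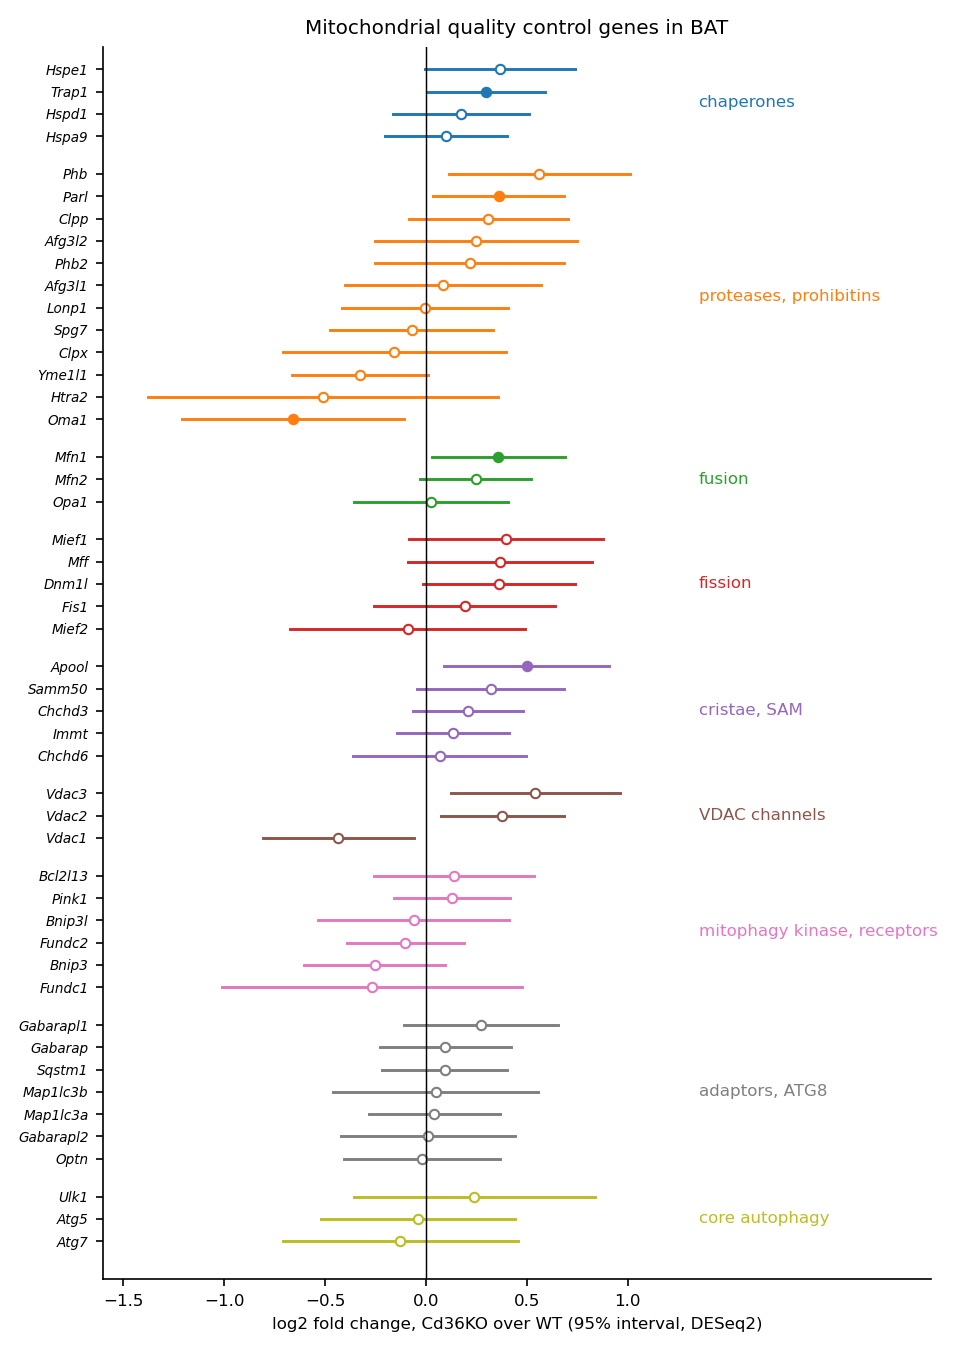
Log2 fold changes of Cd36KO over WT for the 48 genes, grouped by role, on the x axis, with bars for the 95% interval from DESeq2. Filled points mark the 5 genes whose WT and Cd36KO libraries did not overlap (Trap1, Parl, Mfn1 and Apool higher, Oma1 lower), and most points lie within 0.5 of 0.

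Values per library are given in the order WT replicates 1 to 4, then the unnumbered Cd36KO library and Cd36KO replicates 2 to 4. In each role the genes with the largest positive and negative difference are given in full, among those with a mean of at least 50 normalized counts. The SE beside a log2 fold change is its standard error from DESeq2. Trap1, Parl, Oma1, Vdac2 and Hspd1 were added after their values were seen.

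The 4 chaperones all had positive log2 fold changes, with a median of 0.24. Hspe1 (HSP10), the lid of the folding chamber formed by Hspd1 (HSP60), had 451, 599.7, 572 and 710.2 normalized counts in WT and 655, 682, 712 and 956 in Cd36KO. Its groups overlapped through WT replicate 4, and the log2 fold change was 0.37 ± 0.19 (SE, DESeq2 adjusted p = 0.333), or 0.23 without Cd36KO replicate 4. Hspd1 had 777, 768, 817 and 1121 normalized counts in WT and 1063, 1064, 969 and 831 in Cd36KO, at a log2 fold change of 0.17, or 0.32 without WT replicate 4. WT replicate 4 was again the highest WT library, and here it exceeded every Cd36KO library. Trap1 (chromosome 16, 4039971 to 4077827 on the minus strand of GRCm38), a mitochondrial HSP90, had 258, 297, 312 and 306 normalized counts in WT and 399, 361, 339.6 and 343 in Cd36KO. All Cd36KO libraries exceeded all WT libraries, with means of 293 ± 24.1 and 361 ± 27.1 (SD, n = 4 each), and the log2 fold change was 0.30 ± 0.15 (SE, DESeq2 adjusted p = 0.301). Hspa9, the import motor and matrix chaperone mortalin, differed least, with a log2 fold change of 0.10, or 0.03 to 0.17 when single libraries were left out.

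Hspe1 and Hspd1 are transcribed in opposite directions from starts 95 bases apart on chromosome 1, and their annotated exons overlap. Since the strand setting of the counting was not stated, reads in the overlap could have been given to either gene. The 250 bases before the Hspe1 start (RefSeq, GRCm38.p6, chr1:55087898-55088147, plus strand) are shown for a heat shock element, the site of the stress factor HSF1. Of the 48 genes, 41 had such a window, and only this window held the element. Capitals mark 2 overlapping matches of GAA, TTC and GAA in a row, each parted from the next by any 2 bases, searched on both strands.
Hspe1: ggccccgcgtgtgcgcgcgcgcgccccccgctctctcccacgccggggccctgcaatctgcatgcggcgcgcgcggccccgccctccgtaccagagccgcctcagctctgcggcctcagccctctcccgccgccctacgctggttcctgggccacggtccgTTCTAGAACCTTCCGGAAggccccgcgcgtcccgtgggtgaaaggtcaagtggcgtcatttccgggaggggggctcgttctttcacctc
The element was in 1 of the 41 genes with a promoter in the RefSeq table, and in 0.341% of the 7633 promoters of genes with an adjusted p. The Hspd1 window, taken before the more upstream of its 2 starts, lay outside the bases shown and held no match.

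The proteases and prohibitins divided in sign, with 6 of 12 log2 fold changes above 0 and a median of 0.04. Phb, a prohibitin of the ring-shaped scaffold that holds inner membrane proteases, had 273, 335, 275 and 463 normalized counts in WT and 669.6, 390.1, 488 and 438 in Cd36KO. The unnumbered Cd36KO library was far the highest, while Cd36KO replicates 2 and 4 lay below WT replicate 4. The log2 fold change was 0.56 ± 0.23 (SE, DESeq2 adjusted p = 0.172). Its partner Phb2 had a log2 fold change of 0.22, or 0.11 without WT replicate 3 and 0.53 without WT replicate 4. Parl (chromosome 16, 20279818 to 20302387, minus strand), the rhomboid protease that cleaves PINK1, had 169, 163, 182 and 177 normalized counts in WT and 222, 189.9, 232 and 240.2 in Cd36KO. The groups did not overlap, with means of 173 ± 8.54 and 221 ± 22.1 (SD, n = 4 each) and a log2 fold change of 0.36 ± 0.16 (SE, DESeq2 adjusted p = 0.247).

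Lower values in Cd36KO were found for the stress-activated inner membrane protease Oma1 and for Yme1l1, the i-AAA protease, which both cleave the fusion protein OPA1. Oma1 (chromosome 4, 103313812 to 103371868, plus strand) had 47.8, 49.3, 51.8 and 72.2 normalized counts in WT and 31.2, 34.5, 34.8 and 38.9 in Cd36KO. Every Cd36KO library lay below every WT library, with means of 55.3 ± 11.4 and 34.8 ± 3.15 (SD, n = 4 each). The log2 fold change was -0.66 ± 0.28 (SE, DESeq2 adjusted p = 0.200). Yme1l1 had 244, 263, 249 and 195 normalized counts in WT and 169, 205, 199.5 and 185 in Cd36KO. Only WT replicate 4 lay within the Cd36KO range, and the log2 fold change was -0.33 ± 0.17 (SE, DESeq2 adjusted p = 0.341).

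Of the remaining proteases, Clpp, the chamber of the matrix protease ClpXP, had a log2 fold change of 0.31 and its unfoldase Clpx one of -0.16. The m-AAA subunits Afg3l1, Afg3l2 and Spg7 had 0.08, 0.25 (0.44 without WT replicate 1, 0.13 without WT replicate 3) and -0.07, and the matrix protease Lonp1 had -0.0052. Htra2, a protease of the intermembrane space, had only 16.5 to 60.3 normalized counts in WT and 17.8 to 26.6 in Cd36KO, with a log2 fold change of -0.51 that was -0.02 without WT replicate 4. Its exons overlap those of Aup1, a gene with more reads, on the opposite strand.

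Fusion genes had positive log2 fold changes in 3 of 3, with a median of 0.25. Mfn1 (chromosome 3, 32529465 to 32579239, plus strand), a mitofusin that joins outer membranes, had 174, 183, 160.0 and 139 normalized counts in WT and 211, 208, 200.5 and 223 in Cd36KO. All 4 Cd36KO libraries exceeded all WT libraries, with means of 164 ± 19.2 and 211 ± 9.54 (SD, n = 4 each). The log2 fold change was 0.36 ± 0.17 (SE, DESeq2 adjusted p = 0.266). The second mitofusin Mfn2 had a log2 fold change of 0.25, and Opa1, the inner membrane fusion protein, one of 0.03. For Opa1 the Cd36KO libraries spread more widely than WT, from 222 to 375 normalized counts against 276 to 331.

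The promoters of Oma1 and of its substrate Opa1 are shown together because Oma1 was lower in every Cd36KO library while Opa1 overlapped, and both windows hold a match of GCGC, any base and TGCGC, the site of nuclear respiratory factor 1 (NRF1), marked in capitals. They are the 250 bases before each RefSeq start on GRCm38.p6, chr4:103313596-103313845 and chr16:29579084-29579333, both plus strand.
Oma1: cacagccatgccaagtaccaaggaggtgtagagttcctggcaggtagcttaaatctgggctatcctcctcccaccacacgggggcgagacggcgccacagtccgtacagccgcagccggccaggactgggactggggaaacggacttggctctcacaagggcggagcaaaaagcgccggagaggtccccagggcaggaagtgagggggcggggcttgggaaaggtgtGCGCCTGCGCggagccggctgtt
Opa1: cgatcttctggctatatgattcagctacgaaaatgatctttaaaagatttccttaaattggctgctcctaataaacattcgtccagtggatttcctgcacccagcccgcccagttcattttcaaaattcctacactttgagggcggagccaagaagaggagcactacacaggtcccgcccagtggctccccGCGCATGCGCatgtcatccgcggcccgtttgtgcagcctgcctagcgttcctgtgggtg
Counted on both strands, the NRF1 letters were in 8 of the 41 promoters (19.5%), those of Afg3l1, Bnip3, Hspd1, Map1lc3b, Oma1, Opa1, Pink1 and Spg7, beside 9.25% of the promoters of genes with an adjusted p. Their log2 fold changes ran from -0.66 to 0.17. The letters TNAAGGTCA of oestrogen-related receptors, TGATGNAA of the ATF4 response and TCACGTGA of the lysosomal factor TFEB had no match in these 41 windows. They were in 0.563%, 2.08% and 1.66% of the promoters of genes with an adjusted p.

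Fission genes had the second-highest median of the roles, 0.36, with positive log2 fold changes in 4 of 5. Mief1, a receptor that recruits the fission dynamin, had 55.1, 78.1, 48.2 and 62.3 normalized counts in WT and 88.0, 73.6, 70.6 and 89.2 in Cd36KO. WT replicate 2 lay within the Cd36KO range, and the log2 fold change was 0.40 ± 0.24 (SE, DESeq2 adjusted p = 0.455). Its paralogue Mief2 had 74.9, 54.4, 43.5 and 88.0 normalized counts in WT and 83.6, 56.4, 59.3 and 47.3 in Cd36KO. Those groups overlapped throughout, with a log2 fold change of -0.09. Dnm1l, the fission dynamin DRP1, its receptor Mff and the outer membrane protein Fis1 had log2 fold changes of 0.36, 0.37 and 0.19.

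Genes that shape cristae, the folds of the inner membrane, had positive log2 fold changes in 5 of 5, with a median of 0.21. Apool (chromosome X, 112311334 to 112372755, plus strand), a lipid-binding subunit of the MICOS complex at crista junctions, had 82.1, 96.8, 65.9 and 87.0 normalized counts in WT and 119, 112, 132 and 108 in Cd36KO. The groups did not overlap, with means of 83.0 ± 12.9 and 118 ± 10.5 (SD, n = 4 each) and a log2 fold change of 0.50 ± 0.21 (SE, DESeq2 adjusted p = 0.191). Samm50, which inserts barrel proteins into the outer membrane and docks MICOS, had a log2 fold change of 0.32. The MICOS subunits Chchd3, Immt (mitofilin) and Chchd6 had 0.21, 0.13 and 0.07.

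Averaged over its genes, cristae was the only one of the 9 roles in which the libraries did not overlap between groups. The mean deviation from the WT mean, in log2(normalized count + 1), was -0.15 to 0.10 in WT and 0.22 to 0.33 in Cd36KO. This was singled out after the values were seen and was not tested. In chaperones, fission and fusion all WT libraries but 1 lay below every Cd36KO library, and the exception was WT replicate 4 in chaperones and fission and WT replicate 2 in fusion.

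**Figure D2:**
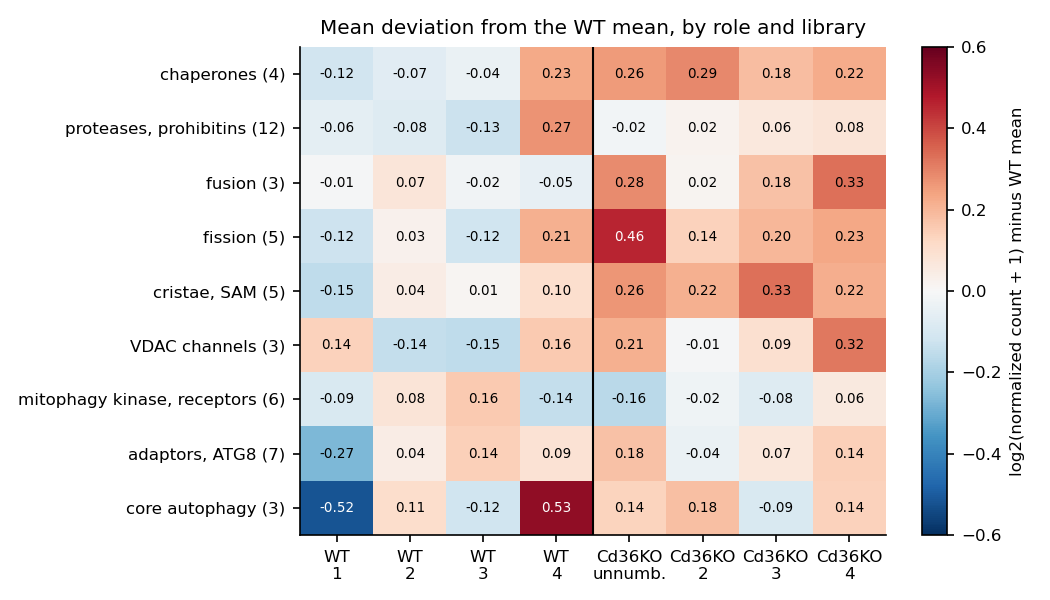
Mean deviation of each role (rows, number of genes in brackets) from its WT mean in each library (columns), in log2(normalized count + 1), shown by colour and as a number. The cristae row is above 0.20 in every Cd36KO library and at most 0.10 in WT, whereas the core autophagy row spans -0.52 to 0.53 within WT alone.

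The 3 voltage-dependent anion channels, which carry metabolites across the outer membrane, had log2 fold changes of opposite sign. Vdac1 (chromosome 11, 52360860 to 52389397, plus strand) had 789.9, 634, 553 and 741 normalized counts in WT and 451, 544, 392 and 622 in Cd36KO. Cd36KO replicate 4 overlapped WT replicate 3, and the log2 fold change was -0.44 ± 0.19 (SE, DESeq2 adjusted p = 0.220). Vdac2 (chromosome 14, 21825238 to 21845879, plus strand) had 774, 731, 652 and 926 normalized counts in WT and 1091, 889, 982 and 1046 in Cd36KO. Here WT replicate 4 lay above Cd36KO replicate 2, and the log2 fold change was 0.38 ± 0.15 (SE, DESeq2 adjusted p = 0.172). Vdac3 (chromosome 8, 22577075 to 22593813, minus strand) had 130.0, 95.1, 120.0 and 119.7 normalized counts in WT and 188, 121, 188 and 178 in Cd36KO. Cd36KO replicate 2 alone lay within the WT range, and the log2 fold change was 0.54 ± 0.21 (SE, DESeq2 adjusted p = 0.153). Vdac3 has an annotated pseudogene copy, so its counts are less certain. The exons of Vdac2 overlap those of Comtd1 on the opposite strand (454 counts in total against 7291 for Vdac2), which makes its counts less certain too.

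Vdac1 took 46.6%, 43.4%, 41.7% and 41.5% of the reads of the 3 Vdac genes in WT, and 26.1%, 35.0%, 25.1% and 33.7% in Cd36KO. The groups did not overlap, with means of 43.3% ± 2.38 and 30.0% ± 5.11 (SD, n = 4 each), a difference of -13.3 percentage points. It lay between -15.0 and -11.7 points when single libraries were left out. The Vdac1 share was chosen after the values were seen. It was 1 of 14 shares, each of the first-listed gene in a pair or family of the 48 genes, and alone of these did not overlap between groups. The shares of Vdac2 and Vdac3 were computed besides. That of Vdac2 did not overlap either, at 45.7% to 51.8% in WT and 56.7% to 63.0% in Cd36KO, and that of Vdac3 did. A share of reads compares counts, not transcripts per length. The muscle marker sums were 31950, 5425, 432 and 4656 CPM in WT and 3220, 151, 129 and 879 CPM in Cd36KO, in the same order of libraries. With the muscle score as a covariate the log2 fold change of Vdac1 was -0.24, and those of Vdac2 and Vdac3 were 0.53 and 0.64. The part of muscle content in the Vdac1 share was not tested.

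**Figure D3:**
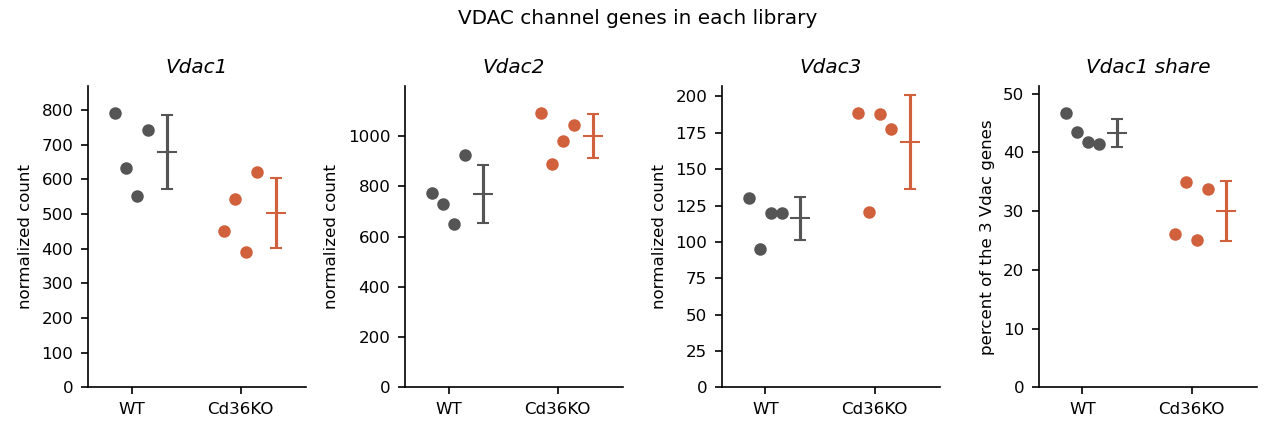
Normalized counts of Vdac1, Vdac2 and Vdac3 and the percentage of their summed reads that fell on Vdac1 (y axes, from 0) in the WT and Cd36KO libraries. Points are libraries and bars the mean ± SD of 4, and the Vdac1 share is at least 41.5% in WT and at most 35.0% in Cd36KO.

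The mitophagy kinase and receptors had the lowest median, -0.08, with positive log2 fold changes in 2 of 6. Pink1, the kinase that marks depolarised mitochondria, had a log2 fold change of 0.13 and 95% limits of -0.16 and 0.42. Bnip3, an outer membrane receptor induced by hypoxia, had 902, 1398, 1551 and 1367 normalized counts in WT and 1174, 1079, 1038 and 1080.0 in Cd36KO. WT replicate 1 lay below every Cd36KO library and the other WT libraries lay above them all, with a log2 fold change of -0.25 ± 0.18 (SE, DESeq2 adjusted p = 0.523). It was -0.40 without WT replicate 1 (DESeq2 adjusted p = 0.1003) and -0.16 without WT replicate 3. Bcl2l13, a receptor related to the BCL2 family, had 327, 292, 322 and 199 normalized counts in WT and 254, 307, 345 and 347 in Cd36KO. These groups overlapped, and the log2 fold change was 0.14. The log2 fold changes of the receptors Bnip3l (NIX), Fundc1 and Fundc2 were -0.06, -0.27 and -0.10, and Fundc1 had only 16.8 to 45.1 normalized counts.

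Cargo adaptors and ATG8 proteins, which tie cargo to the autophagosome membrane, had log2 fold changes close to 0, with a median of 0.05. Gabarapl1 had 499, 698, 679.8 and 784 normalized counts in WT and 807, 628, 1014 and 765 in Cd36KO. Although its mean was higher in Cd36KO, 2 of the 4 Cd36KO libraries lay within the WT range, and the log2 fold change was 0.27 ± 0.20 (SE, DESeq2 adjusted p = 0.533). It was 0.14 without Cd36KO replicate 3 and 0.16 without WT replicate 1. Optn, an adaptor that binds ubiquitin, had 186, 148, 222 and 167 normalized counts in WT and 187, 147, 206 and 171 in Cd36KO. The group ranges were nearly the same, with a log2 fold change of -0.02. Sqstm1 (p62), Gabarap, Map1lc3b, Map1lc3a and Gabarapl2 had log2 fold changes of 0.09, 0.10, 0.05, 0.04 and 0.01.

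Core autophagy genes were the most uneven among WT libraries. Ulk1, the kinase that starts autophagosome formation, had 90.3, 100.2, 64.7 and 196 normalized counts in WT and 115, 132, 132 and 153 in Cd36KO. WT replicate 4 alone exceeded all Cd36KO libraries, and the log2 fold change was 0.24 ± 0.30 (SE, DESeq2 adjusted p = 0.781). It was 0.64 without WT replicate 4 and 0.05 without WT replicate 3. Atg7, the E1-like enzyme of ATG8 conjugation, had 47.8, 115, 115 and 119.7 normalized counts in WT and 108, 94.4, 68.5 and 92.3 in Cd36KO. WT replicate 1 was the lowest of the 8 libraries, and the log2 fold change was -0.13. It was -0.36 without WT replicate 1, and -0.22 to -0.013 when any other library was left out. Atg5, which acts in the same conjugation, had a log2 fold change of -0.04.

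The WT libraries differed among themselves more than the Cd36KO libraries did for most of these genes. The SD of log2(normalized count + 1) was larger in WT for 37 of the 48 (77.1%), beside 59.5% of all genes with an adjusted p. WT replicate 1 was the lowest of the 8 libraries in 19 genes, and WT replicate 4 the highest in 12. Without WT replicate 4, 5 of 45 genes passed the DESeq2 threshold, all higher in Cd36KO, beside 8.71% of all genes, or 5.74% in that direction. They were Phb, Phb2, Mff, Samm50 and Vdac2, with log2 fold changes of 0.75, 0.53, 0.60, 0.49 and 0.48. Without Cd36KO replicate 2, Vdac3 passed with 0.67, 1 of 44 genes, beside 5.86% of all genes, or 3.65% in that direction. With each of the other 6 libraries left out in turn, DESeq2 called 0 of the 41 to 48 genes with an adjusted p, with 3 to 7 at an unadjusted p under 0.05. Over the whole table the number of genes called varied from 70 to 498 when single libraries were left out. The matching shares of all genes were not computed for these 6 fits, so their counts say little about the 48 genes in particular. Among the genes that did not pass, the log2 fold change ranged from 0.22 to 0.48 for Clpp, -0.35 to -0.03 for Clpx, 0.04 to 0.31 for Fis1 and -0.48 to -0.06 for Fundc1 when single libraries were left out. It also ranged from 0.02 to 0.15 for Sqstm1, 0.02 to 0.18 for Gabarap, -0.16 to -0.03 for Fundc2, 0.08 to 0.19 for Pink1 and 0.09 to 0.22 for Immt. With the white adipocyte score as a covariate, Phb and Map1lc3b passed, 2 of 46 genes, beside 8.51% of all genes, or 6.8% in that direction, with log2 fold changes of 1.02 and 1.19. This score, a centred mean log2 CPM, was -0.69 in WT replicate 1, 1.27 to 1.89 in the other WT libraries and -1.43 to -0.66 in Cd36KO. The genotypes therefore shared a range of the score only through WT replicate 1, which had the fewest Map1lc3b counts of the 8 libraries (266 normalized counts), and the adjusted values lean on that library. The part of cell mixture in these differences was not tested further.

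Other genes of the same processes were taken from a second list of 75, of which 74 had an adjusted p. It gave 4 genes past the DESeq2 threshold (5.41%), all higher in Cd36KO, where 1.42% of all genes passed in that direction, and 11 at an unadjusted p under 0.05 (14.9%), again all higher, beside 15.6% of all genes in either direction and 7.69% higher in Cd36KO. The edgeR test called 0 of 74, beside 0.143% of all genes, with 10 at an unadjusted p under 0.05, beside 16.1%. Limma called 0 of 75, where it called 8 of all 17367 genes. It gave 13 at an unadjusted p under 0.05, where 16.2% of the 9617 genes had such a p in limma. The 4 were Wipi2, Clpb, Micos13 and Slc25a46.

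Wipi2 rose most clearly. This protein binds phosphatidylinositol 3-phosphate on the growing autophagosome and recruits the machinery that attaches LC3. It had 405, 402, 419.9 and 426 normalized counts in WT and 778, 625, 612 and 596 in Cd36KO. The WT libraries lay within a narrow band below every Cd36KO library, with means of 413 ± 11.7 and 652 ± 84.3 (SD, n = 4 each). The log2 fold change was 0.66 ± 0.15 (SE, DESeq2 adjusted p = 0.00182), and Wipi2 passed in each of the 8 fits that left out 1 library. Wipi2 did not pass in edgeR (edgeR adjusted p = 0.109) or limma (limma adjusted p = 0.123). Nor did it with the replicate number as a block over 3 numbered pairs (DESeq2 adjusted p = 0.173). Its promoter (RefSeq, GRCm38.p6, chr5:142629334-142629583, plus strand) is shown because its gene had the lowest adjusted p of both lists, with 2 matches of the NRF1 letters, read on the reverse strand, in capitals.
Wipi2: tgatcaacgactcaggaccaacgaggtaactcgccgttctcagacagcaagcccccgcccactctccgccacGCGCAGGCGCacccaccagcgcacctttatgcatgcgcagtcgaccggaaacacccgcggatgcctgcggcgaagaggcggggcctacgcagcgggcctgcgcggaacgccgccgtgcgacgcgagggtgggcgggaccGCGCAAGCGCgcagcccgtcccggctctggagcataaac

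Clpb, a disaggregase of the intermembrane space, had 384, 448, 494 and 469.9 normalized counts in WT and 676, 543, 758 and 732 in Cd36KO. The groups did not overlap, with means of 449 ± 47.4 and 677 ± 95.8 (SD, n = 4 each), and the log2 fold change was 0.60 ± 0.16 (SE, DESeq2 adjusted p = 0.0192). Micos13, a MICOS subunit listed in the table as 2410015M20Rik, had 464, 617, 619 and 640.0 normalized counts in WT and 925, 757, 834 and 900.0 in Cd36KO. Its log2 fold change was 0.55 ± 0.16 (SE, DESeq2 adjusted p = 0.0271), and the groups did not overlap. Slc25a46, an outer membrane protein tied to mitochondrial shape, had 153, 253, 262 and 241 normalized counts in WT and 500.3, 278, 380.5 and 369.9 in Cd36KO. All Cd36KO libraries exceeded all WT libraries, with a log2 fold change of 0.75 ± 0.23 (SE, DESeq2 adjusted p = 0.0420). With the muscle score as a covariate Clpb, Micos13 and Slc25a46 no longer passed, at log2 fold changes of 0.53, 0.54 and 0.77, while Wipi2 passed at 0.73. Micos13 lost its call without WT replicates 1, 2 or 3, the unnumbered library or Cd36KO replicates 3 or 4, and so did Slc25a46. Clpb lost its call without WT replicates 1 or 2, the unnumbered library or Cd36KO replicates 3 or 4. When each of the 8 libraries was left out in turn, the log2 fold changes stayed at 0.45 to 0.60 for Micos13, 0.60 to 0.87 for Slc25a46 and 0.53 to 0.69 for Clpb.

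**Figure D4:**
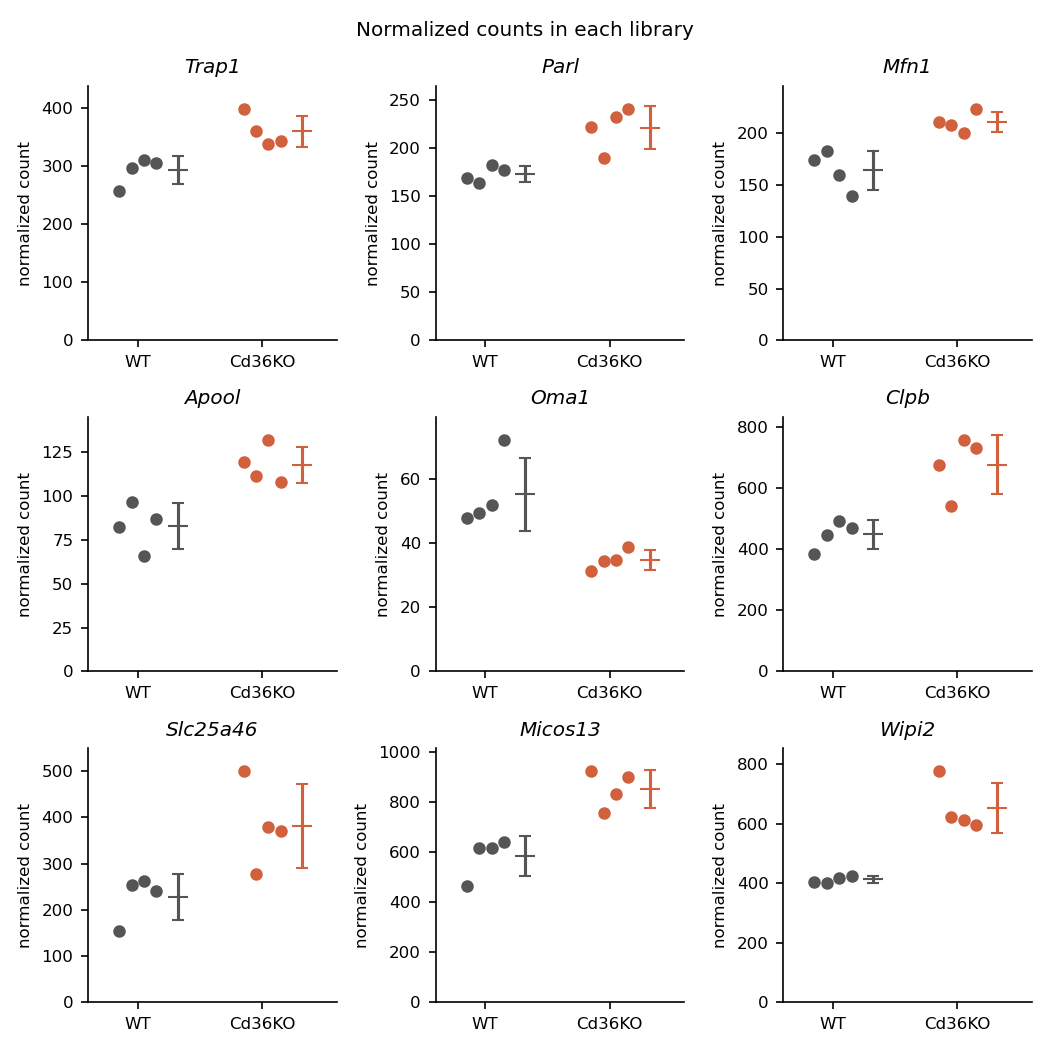
Normalized counts per library (y axes, from 0) of the 5 genes of the 48 whose groups did not overlap (Trap1, Parl, Mfn1, Apool, Oma1) and of the 4 genes of the second list past the DESeq2 threshold (Clpb, Slc25a46, Micos13, Wipi2). Points are libraries and bars the mean ± SD of 4, and in each panel the WT and Cd36KO points are separate, with Oma1 alone lower in Cd36KO.

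By group, the second list had a median log2 fold change of 0.31 for 8 cristae genes, 0.22 for 14 dynamics genes, 0.21 for 14 chaperones, proteases and stress factors, 0.02 for 24 autophagy genes and -0.18 for 14 mitophagy genes. Of the mitophagy genes 2 of 14 had a positive log2 fold change and none was called, with 0 at an unadjusted p under 0.05 in DESeq2 and in edgeR. Over all genes 49.2% were positive, 2.95% were called and 15.6% had such a p in DESeq2.

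Other mitochondrial gene lists were set beside the 48. The oxidative phosphorylation list held 46 nuclear genes, which build the respiratory chain and ATP synthase. Of these, 10 passed the DESeq2 threshold as higher in Cd36KO (21.7%, where 1.42% of all genes did), with a list median of 0.41. The edgeR test called 0 of these 46, beside 0.143% of all genes, with 23 at an unadjusted p under 0.05, where DESeq2 gave 27. Over all genes such a p was found for 16.1% in edgeR and 15.6% in DESeq2. Of 20 genes of protein import, DESeq2 and edgeR called 0, with 3 (15%) at an unadjusted p under 0.05 in each test, near those shares of all genes, and a median of 0.23. The median of the 48 genes, 0.11, was lower than both, and these differences between lists were not tested.

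**Figure D5:**
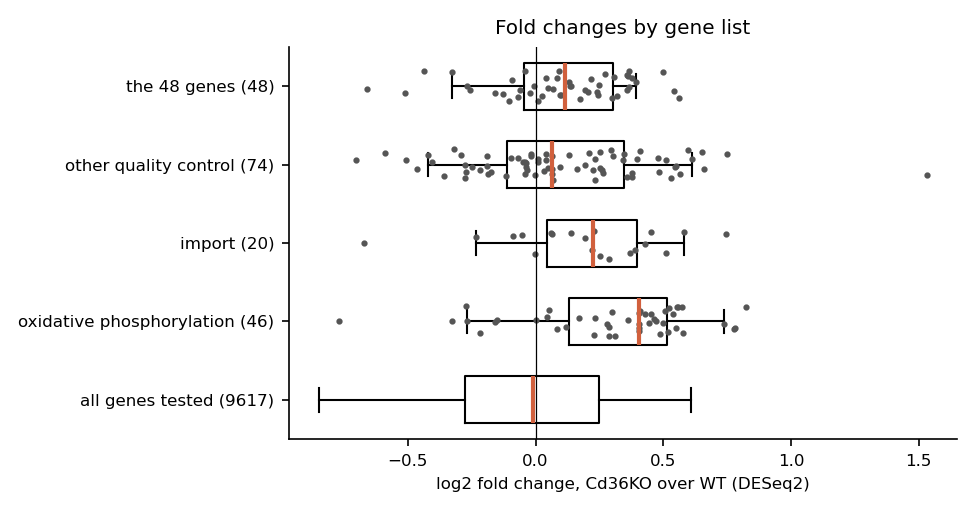
Log2 fold changes of Cd36KO over WT (x axis) for the 48 genes, the second list, the import and oxidative phosphorylation lists and all genes tested. Points are genes, boxes the quartiles with the median in orange, and whiskers span percentiles 5 to 95, and the medians are 0.11, 0.06, 0.23, 0.41 and -0.0087 from top to bottom.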

How the data were processed

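Bulk RNA-seq of BAT was analysed in 4 WT and 4 Cd36KO libraries, grouped by the genotype label. Per the study's methods, single-end reads of a digital mRNA-seq service were trimmed with bbduk, aligned to mm10 with STAR and counted per gene with HTSeq-count, whereas the submitters' processing notes name Trimmomatic, HISAT2 and DESeq2. The values the authors deposited and used here are raw counts per gene. The authors also deposited log2 values, which were checked to equal log2 of the count over a size factor plus a pseudocount of 1. Strand setting, annotation release and use of molecular identifiers are not given in the sources used here. GENCODE M21 on GRCm38 gave symbols for 30934 of 31053 identifiers, and 17367 had any count.

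Counts were tested with DESeq2 1.42.0 in R 4.3.3 (Wald test, genotype only, default filtering, Benjamini-Hochberg threshold 0.05), with fold changes unshrunken. The alternatives were edgeR 4.0.16 (quasi-likelihood), limma 3.58.1 on the authors' log2 values, TMM factors, a filter of 10 counts in 4 libraries, no independent filtering, the replicate number as a block, muscle or white adipocyte scores (mean log2 CPM of the markers) as covariates, and leaving out each library. Filtering at alpha 0.05 was added after the data were seen. Functions were tested on simulated data. The 48 genes and all lists were chosen with earlier results of these data known. Genes given per library are those past the threshold and, in each role, the largest rise and fall among genes with a mean of at least 50 normalized counts. Others were chosen after their values were seen. Every pair of libraries differed by more than sampling noise (chi-square per degree of freedom at least 6.43). The series' design text calls the libraries biological replicates, and the study's figure legend counts mice. The totals of 2679785 to 4097953 counts limit the precision of genes with few reads. Exons of 18 of the 48 genes overlap another annotated gene, for 5 of them one with at least 5% of their counts, and Hspd1, Hspe1, Hspa9, Vdac3 and Bnip3l have named pseudogene copies, so these counts are less certain. Promoter windows were the 250 bases before the most upstream RefSeq start, and 41 of the 48 genes and 59 of the second list of 75 matched. Figures were drawn with matplotlib 3.10.9.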

Additional observations from a re-analysis of the deposited data

Results flagged for a closer look

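In 8 of 106 groups of 4 libraries, 1 library stood apart from its group by Dixon's criterion. This is the gap to the nearest library over the group's range, taken in log2(normalized count + 1). A group was 1 gene in 1 genotype, over the 48 genes, the 4 called genes of the second list and Cd36. Chance gives about 5.3 for independent groups, but these share the same 8 libraries, so that number is only a rough guide. WT replicate 1 was low for Fis1 (105.6 normalized counts, other WT libraries 147.4 to 150.5), Bnip3l (80.3, others 137.5 to 143.5), Atg7 (47.8, others 114.7 to 119.7), Slc25a46 (153.5, others 241.4 to 262.3) and Micos13 (464.0, others 616.6 to 640.0). WT replicate 4 was high for Hspd1, with 1120.7 normalized counts against 767.8 to 817.4. In Cd36KO, the unnumbered library was low for Clpx (52.4, others 72.5 to 76.7) and replicate 2 was low for Vdac3 (120.8, others 177.7 to 188.3). WT replicate 1 also had the highest muscle marker sum, 31950 CPM, and the lowest white adipocyte sum of the WT libraries, 198 CPM, and the part of either in these low values was not tested.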

How the results depend on the processing

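The count of 0 among the 48 genes held in edgeR, limma, TMM factors, the filter of 10 counts, both filtering settings, the muscle score and the block. It became 2 with the white adipocyte score, in which the genotypes overlapped only through WT replicate 1 and which also moved the median log2 fold change to 0.37, and ranged from 0 to 5 when single libraries were left out (the median from 0.08 to 0.18). Genes called over the whole table numbered 284, and 14 in edgeR, 171 without independent filtering, 183 with the muscle score, 599 with the white adipocyte score, 8 in limma and 70 to 498 when single libraries were left out. The second list gave 4, and 0 in edgeR, 0 in limma, 2 with the muscle score, 9 with the white adipocyte score and 1 to 9 when single libraries were left out. Without independent filtering Slc25a46 lost its call.

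For the replicate block, 3 numbered pairs were fitted, without WT replicate 1 and the unnumbered library. Deviations of same-numbered libraries correlated at -0.07, 0.27 and 0.11, so the numbers were not taken to pair the libraries. Under the block 221 genes, 0 of the 48 and 0 of the second list were called, and the median was 0.09.

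Some log2 fold changes changed sign, and in the settings where they did so none passed the threshold. Under the block they were Clpx 0.081, Opa1 -0.079, Fis1 -0.087, Chchd6 -0.097, Fundc1 0.15, Sqstm1 -0.043, Map1lc3b -0.26 and Gabarapl2 -0.058. With the muscle score they were Afg3l1 -0.064, Mief2 0.26, Chchd6 -0.092, Map1lc3a -0.047 and Map1lc3b -0.020. With the white adipocyte score they were Hspa9 -0.046, Lonp1 0.38, Afg3l2 -0.36, Spg7 0.11, Bnip3 0.34, Bnip3l 0.66, Fundc2 0.0087, Bcl2l13 -0.22, Atg5 0.51 and Atg7 1.09. Gabarapl2 was -0.0064 in edgeR and -0.0005 with the filter of 10 counts, and in limma Lonp1 was 0.013 and Opa1 -0.0016. With single libraries left out the ranges that crossed 0 were Afg3l1 -0.088 to 0.18, Opa1 -0.11 to 0.14, Chchd6 -0.10 to 0.19, Map1lc3a -0.066 to 0.10, Map1lc3b -0.17 to 0.17, Bnip3l -0.23 to 0.023, Optn -0.11 to 0.093, Lonp1 -0.10 to 0.17, Spg7 -0.17 to 0.084, Mief2 -0.27 to 0.085, Gabarapl2 -0.081 to 0.093 and Atg5 -0.16 to 0.076, and Bcl2l13 -0.00 to 0.23, below 0 before rounding. The causes were not tested.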
